A study of Rattus norvegicus with 16 samples.

Results

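Probe sets for 8 genes that serve resting astrocytes were followed through the first 48 h after traumatic brain injury in rats: the gap junction genes Gjb6 and Gja1, the water channel gene Aqp4, the potassium channel gene Kcnj10, the glutamate transporter genes Slc1a2 and Slc1a3, the glutamine synthetase gene Glul and the folate enzyme gene Aldh1l1. Members were all probe sets whose only gene symbol in the array annotation, or an alias of it, is one of these 8. These 8 of the 14217 genes named on the array have 17 of the 31042 probe sets on the array that are not controls. Gja1, Aqp4, Slc1a3 and Glul have 3 probe sets each, Slc1a2 has 2, and Gjb6, Kcnj10 and Aldh1l1 have 1 each.

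RNA of the lateral cortex was measured on 16 Affymetrix arrays. Every animal was a male Wistar rat aged 8 weeks that had received a craniectomy over the right parietal cortex 48 h before either a moderate fluid percussion injury or a sham procedure, so the craniectomy is common to the injured and sham groups. Injured cortex was sampled at 3, 6, 12 and 48 h with 3 arrays at each time, and sham cortex at the same times with 1 array each. The study's design pools the shams of 3, 6 and 12 h, called early shams here (3 arrays), and keeps the 48 h sham apart because that array was distinct from the others in clustering. The tissue was whole cortex from the contused area, with all of its cell types. In such bulk samples fewer cells of a type and less RNA per cell cannot be told apart.

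The deposited values are log intensities from which the median of each probe set over the 16 arrays has been taken away, and they were read as log2. A value of 0 is therefore the probe set's own middle array, and a difference of 1 between groups is a factor of 2. The values show differences between arrays and hold no level, so the astrocyte identity of the tissue could not be checked from marker levels. Groups were compared with limma over all 31042 probe sets, and a probe set was called at an adjusted p under 0.05. Each array was taken as an independent replicate. The labels do not say how animals map to arrays, so p-values measure the spread between arrays.

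Astrocytes take up the glutamate that neurons release through the transporters encoded by Slc1a2 and Slc1a3, and glutamine synthetase, the product of Glul, turns it into glutamine that returns to neurons. They clear potassium through the inward rectifier channel of Kcnj10. Aquaporin, encoded by Aqp4, lets water pass across the astrocyte end feet that wrap blood vessels, and the connexins encoded by Gja1 and Gjb6 join astrocytes into a network through gap junctions. Aldh1l1 encodes a folate dehydrogenase that is widely used as a marker of astrocytes.

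Gjb6 and Aldh1l1 were lower than in early shams at 12 h after injury, Aldh1l1 was higher at 48 h than at 12 h, and at 48 h 2 probe sets of Aqp4 and 2 of Gja1 stood above the early shams. Both of those Gja1 calls ended when any single compared array was left out. The 12 h call of Aldh1l1 was kept by 5 of 11 alternative fits and that of Gjb6 by 10. The 48 h calls of Aqp4 were kept by 9 and 11. No probe set of Slc1a2, Slc1a3, Glul or Kcnj10 was called in any comparison. At 48 h the lone sham of that time also had high Aqp4 and low Gjb6. Against it 0 of the 17 were called, beside 0.0129% of all 31042 probe sets.

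Gjb6, the connexin gene that in the brain is found mainly in astrocytes, showed the largest injury difference of the 8 genes. Its probe set 1368577_at read 0.03, 0.18 and 0.33 in the 3 h injured arrays, -0.23, -0.15 and 0.01 at 6 h, -0.69, -0.93 and -0.04 at 12 h, and -0.04, 0.10 and -0.01 at 48 h. The 3, 6 and 12 h shams read 0.29, 0.64 and 0.83, and the 48 h sham read -0.18. At 12 h all 3 injured arrays were below all 3 early shams, although the third injured array lay well above the other two.

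At 12 h Gjb6 averaged -0.55 ± 0.46 in injured cortex and 0.59 ± 0.27 in early shams (SD, n = 3 each), a log2 difference of -1.14 ± 0.19 (SE) or 2.20-fold lower, with an adjusted p of 0.00373 from limma. The difference was -0.41 at 3 h (adjusted p = 0.609 by limma) and -0.71 at 6 h (adjusted p = 0.0784 by limma). At 48 h it was -0.57 against the early shams (adjusted p = 0.0862 by limma) and 0.20 against the 48 h sham (adjusted p = 0.958 by limma). The injured arrays were below every early sham at 6, 12 and 48 h, but the call was met at 12 h only. Gjb6 was also called lower at 6 h after quantile normalization, with array weights or with only those 2 groups in the model, and at 48 h after quantile normalization (-0.84, adjusted p = 0.0426 by limma) or with array weights (-0.59, adjusted p = 0.0301 by limma). These comparisons share the early shams. With only the 12 h and early sham arrays in the model, the adjusted p at 12 h was 0.0884. Without the second injured 12 h array, whose values were the most widely spread of the 16, the difference was -0.95 and the adjusted p was 0.0157.

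The step between 12 and 48 h in injured cortex was 0.57 for Gjb6 (adjusted p = 0.0715 by limma). Leaving out the 12 h array that read -0.04 widened this step to 0.83 (adjusted p = 0.00523 by limma). That array was the 12 h array closest to the 48 h values. The other 12 h arrays read -0.69 and -0.93, and leaving out either of them makes the step smaller than 0.57. The array at -0.93 had the most widely spread values of all arrays. The step therefore depended on which 12 h array was left out. RefSeq lists a pair of start regions for rat Gjb6 on chromosome 15 of the build GRCr8, at chr15:35408913-35409212 and chr15:35410089-35410388 on the minus strand. Each stretch runs from 250 bases before the start to 50 bases from it, 5′ to 3′, and is shown because Gjb6 had the largest change. Capitals mark the motif TTGGCA or its reverse complement, bound by nuclear factor I, a factor family active in astrocytes.
Gjb6 promoter, downstream start: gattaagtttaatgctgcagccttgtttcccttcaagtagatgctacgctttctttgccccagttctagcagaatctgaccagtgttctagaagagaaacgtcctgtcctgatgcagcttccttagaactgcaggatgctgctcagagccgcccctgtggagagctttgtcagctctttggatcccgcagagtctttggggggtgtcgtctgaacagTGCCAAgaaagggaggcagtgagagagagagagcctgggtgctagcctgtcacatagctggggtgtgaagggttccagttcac
Gjb6 promoter, upstream start: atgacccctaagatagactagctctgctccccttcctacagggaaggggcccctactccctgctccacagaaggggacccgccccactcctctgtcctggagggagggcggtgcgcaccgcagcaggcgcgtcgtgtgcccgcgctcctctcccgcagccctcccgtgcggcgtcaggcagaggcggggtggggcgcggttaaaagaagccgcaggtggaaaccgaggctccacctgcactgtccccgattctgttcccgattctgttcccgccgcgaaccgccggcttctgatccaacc
The motif occurs in the downstream region and in 14% of the 33469 rat promoters of the same length. The probe set could not be assigned to either start here.

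Gja1 encodes the more widely expressed astrocyte connexin, which is also made by endothelial and meningeal cells. It was not called at 12 h, when the differences of its 3 probe sets from the early shams were -0.07, 0.00 and 0.04 (adjusted p from 0.748 to 0.991 by limma). Probe set 1369640_at read -0.24, 0.02 and 0.02 in injured cortex at 3 h, -0.22, -0.42 and 0.07 at 6 h, -0.13, 0.12 and -0.06 at 12 h, and 0.42, 0.33 and 0.56 at 48 h. The early shams read -0.13, -0.02 and 0.07, and the 48 h sham read -0.02. All 3 injured 48 h arrays were above every other array of that probe set.

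Against the early shams, 1369640_at was higher at 48 h by 0.46 ± 0.12 (SE), or 1.38-fold (adjusted p = 0.0387 by limma). Against the 48 h sham the difference was 0.46 as well, with an interval from 0.09 to 0.83 and an adjusted p of 0.701 by limma. Probe set 1372002_at read 0.21, 0.20 and 0.23 in injured cortex at 48 h, against -0.21, -0.04 and 0.01 in early shams and -0.08 in the 48 h sham. Its difference from the early shams was 0.29 ± 0.08 (SE, adjusted p = 0.0398 by limma). Probe set 1369639_at read 0.09, 0.03 and 0.14 in injured cortex at 48 h, against -0.11, 0.06 and 0.04 in early shams, and was not called (difference 0.09, adjusted p = 0.645 by limma).

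Both Gja1 calls at 48 h lay close to the threshold. Leaving out any single array of the 6 compared ended each of them, with adjusted p from 0.0675 to 0.122 for 1369640_at and from 0.0550 to 0.142 for 1372002_at by limma, while the differences stayed between 0.40 and 0.52 and between 0.23 and 0.34. With the mean of the 3 probe sets, Gja1 was higher by 0.28 (adjusted p = 0.0352 by limma). In injured cortex 1369640_at rose by 0.46 between 12 and 48 h (adjusted p = 0.0304 by limma), and 1372002_at differed by 0.25 (adjusted p = 0.0607 by limma). The step of 1369640_at was called in 3 of 11 alternatives, with the mean of the 3 Gja1 probe sets counted among them. Of the 6 fits that left out 1 array, 4 ended it.

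The start region of Gja1 lies on chromosome 20 at chr20:36302314-36302613 on the plus strand of GRCr8 and is shown as that of the other connexin with a call. Capitals mark the hypoxia response core ACGTG and the CCAAT box, on either strand.
Gja1 promoter: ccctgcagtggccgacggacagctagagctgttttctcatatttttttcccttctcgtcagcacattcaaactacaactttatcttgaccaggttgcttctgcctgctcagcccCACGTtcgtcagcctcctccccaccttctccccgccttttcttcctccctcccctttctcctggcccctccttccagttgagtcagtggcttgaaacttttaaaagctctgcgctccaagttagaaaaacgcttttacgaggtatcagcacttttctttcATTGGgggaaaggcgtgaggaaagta
ACGTG occurs in 19.3% of the 33469 promoters and CCAAT in 37.5%.

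**Figure D1:**
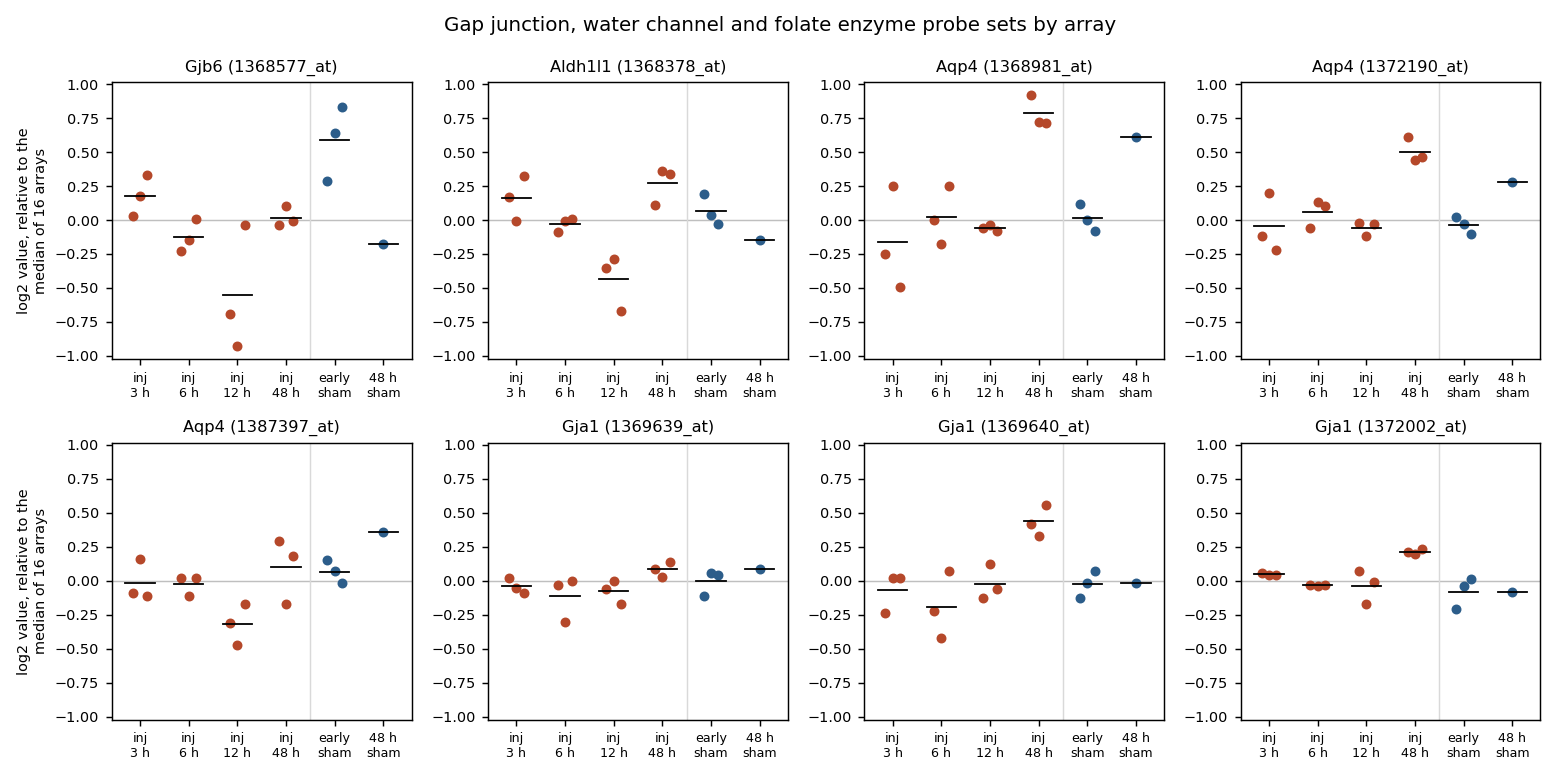
Values of the probe sets of Gjb6, Aldh1l1, Aqp4 and Gja1 in each array (y axis: log2 value relative to the probe set's median over 16 arrays; x axis: injured cortex at 3, 6, 12 and 48 h, then the early shams and the 48 h sham). Each point is 1 array and each bar a group mean; Gjb6 is lowest in 2 of the 12 h injured arrays, and the first 2 Aqp4 probe sets are high in the 48 h injured arrays and in the 48 h sham.

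Aqp4, the water channel of the end feet, was measured by 3 probe sets whose changes differed at 48 h. Probe set 1368981_at read -0.25, 0.25 and -0.49 in injured cortex at 3 h, 0.00, -0.18 and 0.25 at 6 h, -0.06, -0.04 and -0.08 at 12 h, and 0.92, 0.72 and 0.71 at 48 h. Early shams read 0.12, 0.00 and -0.08, and the 48 h sham read 0.61. The 4 arrays of 48 h, the sham included, were the highest of the 16.

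At 48 h this probe set averaged 0.78 ± 0.12 in injured cortex and 0.01 ± 0.10 in early shams (SD, n = 3 each), a difference of 0.77 ± 0.15 (SE) or 1.71-fold higher (adjusted p = 0.0104 by limma). Against the 48 h sham the difference was 0.17, with an interval from -0.29 to 0.64 (adjusted p = 0.951 by limma). The 48 h sham itself differed from the early shams by 0.60 ± 0.22 (SE, adjusted p = 0.704 by limma). With all 4 shams as controls the injury difference was 0.62 (adjusted p = 0.0563 by limma), and after quantile normalization against the early shams it was 0.62 (adjusted p = 0.0705 by limma).

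Probe set 1372190_at had the same 4 arrays highest, with -0.12, 0.20 and -0.22 in injured cortex at 3 h, -0.06, 0.13 and 0.10 at 6 h, -0.02, -0.12 and -0.03 at 12 h, and 0.61, 0.44 and 0.46 at 48 h. Early shams read 0.02, -0.03 and -0.10. The 48 h sham read 0.28. Its difference from the early shams was 0.54 ± 0.10 (SE) or 1.45-fold (adjusted p = 0.00809 by limma). All 11 alternatives kept this call, with the mean of the 3 Aqp4 probe sets counted among them. The difference from the 48 h sham was 0.22, with an interval from -0.08 to 0.53 (adjusted p = 0.868 by limma). Over the 16 arrays, which include the group differences, 1368981_at and 1372190_at had a Pearson correlation of 0.94.

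The third Aqp4 probe set, 1387397_at, read -0.31, -0.47 and -0.17 in injured cortex at 12 h and 0.29, -0.17 and 0.18 at 48 h, against 0.15, 0.07 and -0.02 in early shams and 0.36 in the 48 h sham. It differed from the early shams by -0.38 at 12 h (adjusted p = 0.110 by limma) and by 0.03 at 48 h (adjusted p = 0.919 by limma). Its correlation with the other two was 0.57 and 0.55. The change of 1368981_at against early shams at 48 h exceeded that of 1387397_at by 0.74 (adjusted p = 0.0176 by limma over 9597 pairs of probe sets that share a gene), and that of 1372190_at exceeded it by 0.51 (adjusted p = 0.0315 by limma over the same pairs). These were the 2 called of the 13 pairs among the 8 genes, beside 2.19% of all 9597 pairs at 48 h. No pair of the 8 genes was called at 3, 6 or 12 h, where 0.125%, 0.813% and 0.781% of all pairs were. Neither Aqp4 pair was called after quantile normalization, or without the first or second injured 48 h array, the 6 h sham or the 12 h sham, and 1 was called without the 3 h sham. The 2 Aqp4 probe sets that changed differed from each other by 0.23 (adjusted p = 0.393 by limma).

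All 3 Aqp4 probe sets rose in injured cortex between 12 and 48 h. The steps were 0.84 for 1368981_at (adjusted p = 0.00406 by limma), 0.56 for 1372190_at (adjusted p = 0.00403 by limma) and 0.42 for 1387397_at (adjusted p = 0.0433 by limma). The first 2 were called in all 11 alternatives. Among the alternatives is the mean of the gene's 3 probe sets, which gives all 3 the same step of 0.61. The step of 1387397_at was called in 3 of 11, with that mean counted among them. It was lost without the first 48 h array (0.32, adjusted p = 0.164 by limma), the third 48 h array (0.38, adjusted p = 0.105), the first 12 h array (0.42, adjusted p = 0.0708) or the second 12 h array (0.34, adjusted p = 0.144). Quantile normalization, array weights, only the compared groups in the model, and replicate numbers treated as blocks each ended that call too.

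RefSeq gives rat Aqp4 a pair of start regions on chromosome 18 of GRCr8, at chr18:6797877-6798176 and chr18:6798793-6799092 on the minus strand, printed here because the Aqp4 probe sets disagree. Which start each probe set reports was not analysed here. Capitals mark the CCAAT box.
Aqp4 promoter, downstream start: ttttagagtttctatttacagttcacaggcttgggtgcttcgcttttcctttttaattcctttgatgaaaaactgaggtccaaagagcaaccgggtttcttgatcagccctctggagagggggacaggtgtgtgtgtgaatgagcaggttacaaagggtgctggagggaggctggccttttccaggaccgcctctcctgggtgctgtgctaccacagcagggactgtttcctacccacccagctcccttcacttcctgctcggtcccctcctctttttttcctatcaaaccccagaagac
Aqp4 promoter, upstream start: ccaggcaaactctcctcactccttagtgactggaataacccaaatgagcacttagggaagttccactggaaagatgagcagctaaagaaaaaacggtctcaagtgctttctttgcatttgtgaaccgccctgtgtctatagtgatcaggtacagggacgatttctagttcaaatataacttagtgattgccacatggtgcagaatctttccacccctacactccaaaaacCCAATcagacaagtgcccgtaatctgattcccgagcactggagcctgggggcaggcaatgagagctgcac
The CCAAT box was found in the upstream region only.

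Kcnj10 encodes the inward rectifier potassium channel that shares the end feet with Aqp4. Its probe set 1387467_at read 0.15, 0.29 and 0.18 in injured cortex at 3 h, -0.02, 0.07 and 0.01 at 6 h, -0.27, -0.11 and -0.15 at 12 h, and -0.15, -0.36 and 0.13 at 48 h. Early shams read 0.34, -0.01 and -0.28, which spans almost the whole range of the injured arrays, and the 48 h sham read 0.17. The differences from the early shams ran from -0.19 at 12 h to 0.19 at 3 h, with adjusted p from 0.532 to 0.994 by limma. At 48 h the interval of the difference was -0.44 to 0.16 against early shams and -0.72 to 0.13 against the 48 h sham.

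Slc1a2 encodes the main glutamate transporter of the cortex. Probe set 1369693_a_at read 0.22, 0.23 and -0.01 in injured cortex at 12 h and -0.07, -0.26 and 0.05 at 48 h, against -0.22, -0.14 and 0.10 in early shams and -0.07 in the 48 h sham. The differences from early shams were 0.23 at 12 h (adjusted p = 0.273 by limma) and -0.01 at 48 h (adjusted p = 0.982 by limma). Probe set 1369694_at read -0.12, 0.05 and 0.09 in injured cortex at 48 h, against -0.08, -0.17 and 0.00 in early shams, and differed from them by between 0.00 and 0.13 at the 4 times. The groups overlapped for both probe sets at every time against the early shams. At 48 h the interval was -0.23 to 0.22 for 1369693_a_at and -0.18 to 0.36 for 1369694_at.

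Slc1a3 encodes the other astrocyte glutamate transporter. Probe set 1368565_at read 0.10, 0.13 and 0.10 in injured cortex at 48 h, against -0.02, -0.07 and -0.04 in early shams and -0.09 in the 48 h sham. These groups did not overlap, but the difference of 0.15 ± 0.07 (SE) was not called (adjusted p = 0.250 by limma). Probe set 1388064_a_at read 0.09, 0.25 and 0.15 in injured cortex at 48 h, against -0.01, -0.11 and -0.10 in early shams and -0.07 in the 48 h sham. Its difference of 0.24 ± 0.09 (SE) was not called either (adjusted p = 0.140 by limma).

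Slc1a3 probe set 1371130_at had differences opposite in sign to those of the other two at 6, 12 and 48 h. It read 0.30, 0.10 and 0.54 in injured cortex at 3 h and -0.40, -0.02 and -0.06 at 6 h, against 0.39, 0.16 and 0.02 in early shams. The difference from early shams was -0.35 at 6 h (adjusted p = 0.283 by limma), -0.21 at 12 h (adjusted p = 0.446 by limma) and -0.22 at 48 h (adjusted p = 0.369 by limma), and the step between 3 and 6 h was -0.47 (adjusted p = 0.131 by limma). No pair of the 3 probe sets differed in change beyond the spread between arrays at the threshold used.

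Glul encodes glutamine synthetase, the enzyme that receives the glutamate taken up by these transporters. Its 3 probe sets were above the early shams by 0.23, 0.46 and 0.45 at 48 h, with adjusted p of 0.0960, 0.112 and 0.0606 by limma, and none was called. Probe set 1386870_at read 0.16, 0.44 and 0.00 in injured cortex at 12 h and 0.07, 0.58 and 0.29 at 48 h, against -0.15, -0.25 and 0.00 in early shams and 0.00 in the 48 h sham. Probe set 1367633_at read 0.05, 0.52 and 0.00 at 12 h and 0.03, 0.60 and 0.31 at 48 h, against -0.20, -0.29 and 0.04 in early shams and 0.00 in the 48 h sham. In both, the second injured array of 12 h and the second of 48 h were the highest of their groups. Probe set 1367632_at read 0.15, 0.26 and 0.09 at 48 h, against -0.17, -0.02 and 0.00 in early shams and -0.04 in the 48 h sham. The intervals at 48 h against early shams ran from 0.06 to 0.40 for 1367632_at, from 0.12 to 0.81 for 1367633_at and from 0.16 to 0.73 for 1386870_at.

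**Figure D2:**
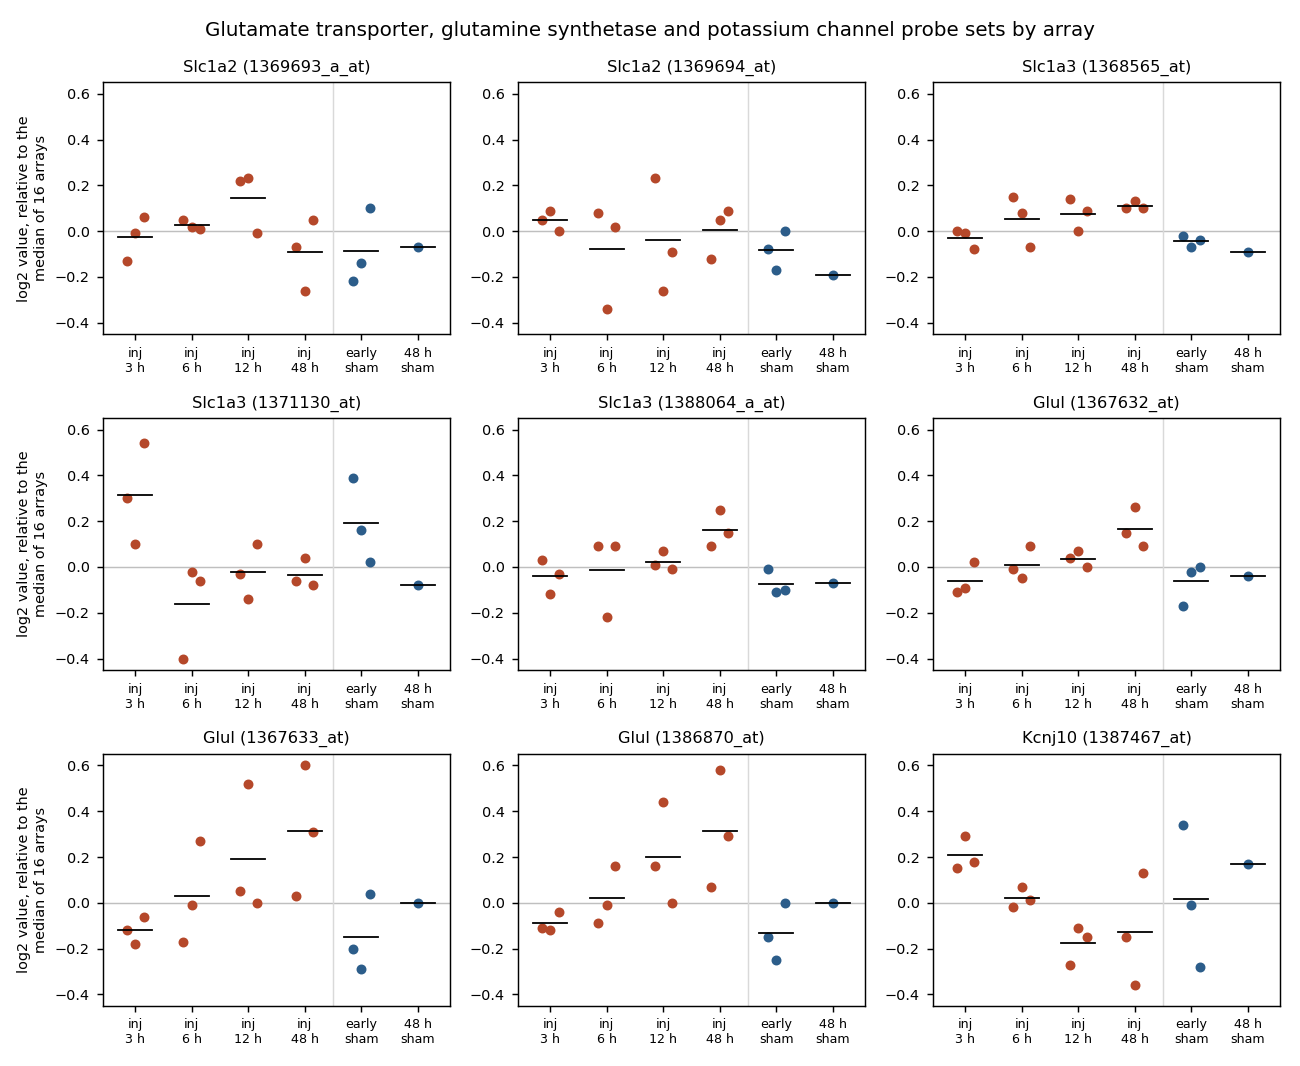
Values of the probe sets of Slc1a2, Slc1a3, Glul and Kcnj10 in each array (y axis: log2 value relative to the probe set's median over 16 arrays; x axis: injured cortex at 3, 6, 12 and 48 h, then early shams and the 48 h sham; points are arrays and bars group means). None of these 9 probe sets was called in the main model. The highest Glul values, 0.60 and 0.58, are both from the second injured 48 h array.

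Aldh1l1, the folate enzyme, was the other gene that was lower at 12 h. Its probe set 1368378_at read 0.17, -0.01 and 0.32 in injured cortex at 3 h, -0.09, -0.01 and 0.01 at 6 h, -0.35, -0.29 and -0.67 at 12 h, and 0.11, 0.36 and 0.34 at 48 h. Early shams read 0.19, 0.04 and -0.03, and the 48 h sham read -0.15. The 3 injured arrays of 12 h were the lowest of the 16.

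At 12 h the difference from early shams was -0.50 ± 0.11 (SE) or 1.42-fold lower (adjusted p = 0.0287 by limma). That call was lost without the third injured 12 h array (-0.39, adjusted p = 0.0586), the 3 h sham (-0.44, adjusted p = 0.126) or the 6 h sham (-0.52, adjusted p = 0.0926), after quantile normalization (-0.48, adjusted p = 0.0637), with only those 2 groups in the model (adjusted p = 0.142) and against the 12 h sham alone (-0.41, adjusted p = 0.509). In injured cortex Aldh1l1 rose between 12 and 48 h by 0.71 ± 0.11 (SE) or 1.63-fold (adjusted p = 0.00208 by limma), a call kept by 10 of 11 alternatives. At 48 h it differed by 0.20 from early shams (adjusted p = 0.348 by limma) and by 0.42 from the 48 h sham (adjusted p = 0.715 by limma). The step between 6 and 12 h was -0.41 (adjusted p = 0.467 by limma).

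The start region of Aldh1l1 lies on chromosome 4 at chr4:124616970-124617269 on the plus strand of GRCr8 and is shown as that of the other gene lower at 12 h. Capitals mark the CCAAT box, here in its reverse complement.
Aldh1l1 promoter: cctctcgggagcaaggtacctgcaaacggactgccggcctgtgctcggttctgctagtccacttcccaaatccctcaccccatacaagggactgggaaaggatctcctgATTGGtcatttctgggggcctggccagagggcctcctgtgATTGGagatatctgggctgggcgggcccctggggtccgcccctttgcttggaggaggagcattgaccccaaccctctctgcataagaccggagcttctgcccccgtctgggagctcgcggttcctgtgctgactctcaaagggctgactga
It holds none of the other motifs searched, which were the TATA box TATAAA (14.2% of promoters), the hypoxia response core, the nuclear factor I motif and the STAT site TTCNNNGAA (8.87% of promoters). The STAT site was found in none of the 14 promoters of the 8 genes.

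Counted over all 17 probe sets, 0 were called at 3 h, beside 0.277% of the 31042 probe sets tested, and 0 at 6 h, beside 1.71%. At an unadjusted p under 0.05 the counts were 1 at 3 h, beside 8.01% of all probe sets, and 2 at 6 h, beside 11.6%. At 12 h 2 were lower, Gjb6 and Aldh1l1, beside 0.763% of all probe sets lower, and 0 were higher, beside 2.12%. At an unadjusted p under 0.05 there were 5, beside 17%. The median difference of the 17 was 0.00 at 12 h, against -0.02 over all probe sets. At 48 h against early shams 4 were higher, beside 3.84%, and 0 were lower, beside 2.31%. At an unadjusted p under 0.05 there were 9, beside 20.8%. The median of the 17 was 0.20, against -0.02 over all. With array weights 5 were higher and 1 lower, and after quantile normalization 3 were higher and 1 lower. The lower one was Gjb6 in both. In each, the higher ones included a probe set that was not called in the main model. Against the 48 h sham 0 were called by limma, beside 0.0129% of all, with 3 at an unadjusted p under 0.05, beside 6.28%, and a median of 0.20, against 0.00 over all. The 48 h sham is 1 array, assumed in the model to vary like the other groups.

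In injured cortex from one time to the next, 0 of the 17 were called between 3 and 6 h, beside 0.644% of all probe sets, and 0 between 6 and 12 h, beside 0.0129%. At an unadjusted p under 0.05 there was 1 between 3 and 6 h, beside 11.7%, and there were 3 between 6 and 12 h, beside 7.26%. Later, between 12 and 48 h, 5 were higher, beside 4.65%, and 0 were lower, beside 4.44%. At an unadjusted p under 0.05 there were 8, beside 23.0%. The 5 called were all 3 probe sets of Aqp4, Aldh1l1 and Gja1 1369640_at. For the 48 h sham against the early shams 0 of the 17 were called, beside 0.00644%, with 3 at an unadjusted p under 0.05, beside 6.31%. Those 3 were Gjb6 at -0.77, Aqp4 1368981_at at 0.60 and Aqp4 1372190_at at 0.32.

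**Figure D3:**
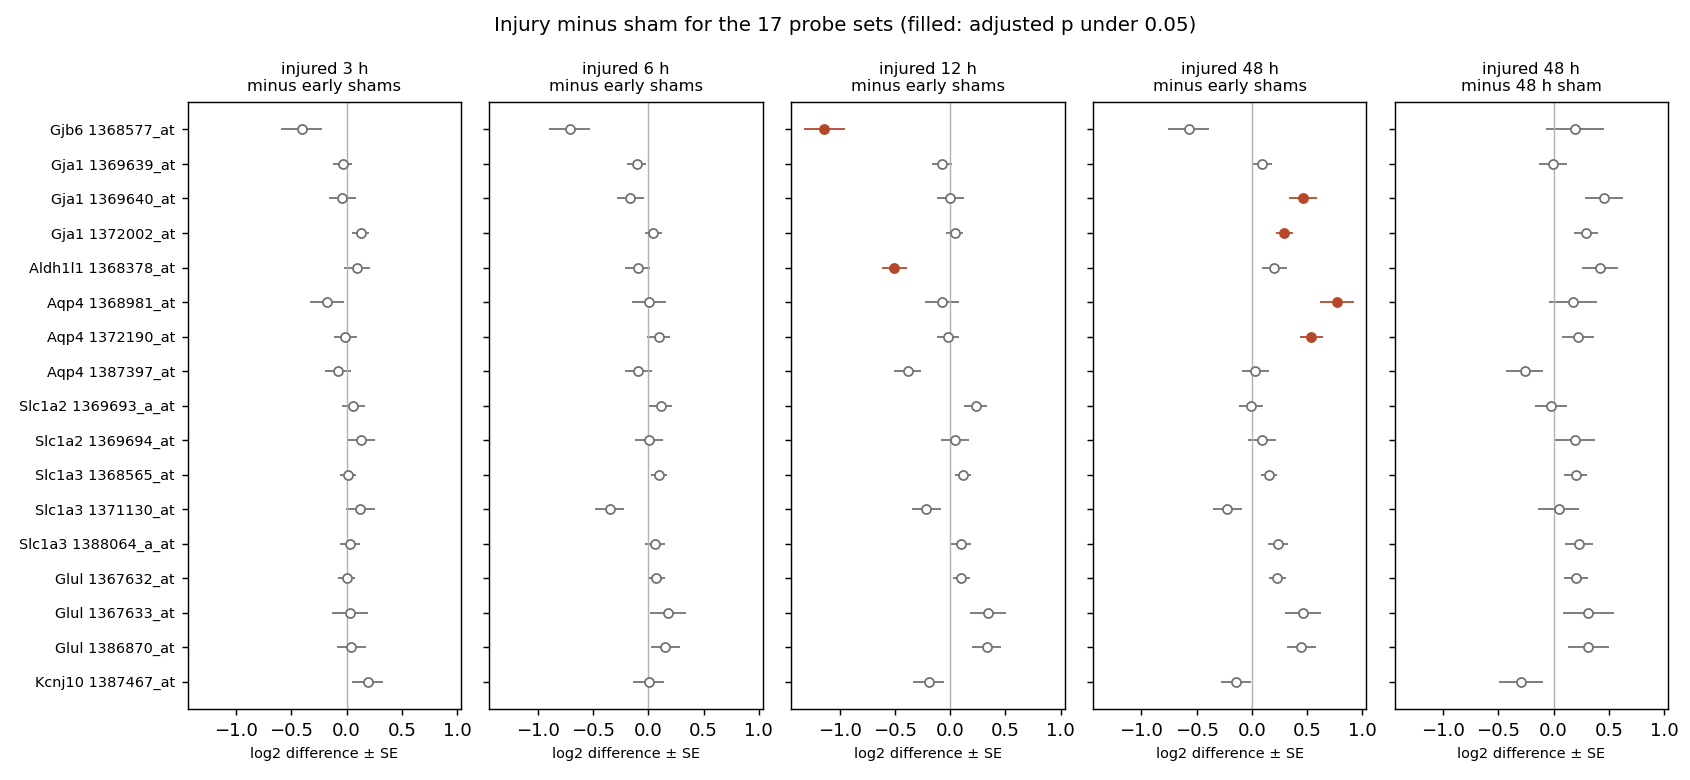
Log2 difference with its standard error for each of the 17 probe sets (rows) in 5 comparisons of injured with sham cortex (panels; x axis: log2 difference, injured minus sham). Filled points have an adjusted p under 0.05: Gjb6 and Aldh1l1 at 12 h, and 2 probe sets each of Gja1 and Aqp4 at 48 h against early shams.

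The 8 genes work with others, and these partners were followed as lists. Their counts stand beside the shares of all 31042 probe sets that were called. At 12 h 2.12% were higher and 0.763% lower. At 48 h against early shams 3.84% were higher and 2.31% lower, and between 12 and 48 h 4.65% were higher and 4.44% lower. Among 17 end foot and ion handling genes (29 probe sets), 2 probe sets were lower at 12 h: the bicarbonate transporter gene Slc4a4 at -0.52 (adjusted p = 0.0431 by limma) and Hepacam 1378164_at, whose product anchors junction and channel proteins at astrocyte contacts, at -0.39 (adjusted p = 0.0376 by limma). Against early shams at 48 h 4 were higher and 0 lower. They were Kcnj16, a partner subunit of the Kcnj10 channel, at 0.64 (adjusted p = 0.0126), the sodium pump regulator Fxyd1 at 0.57 (adjusted p = 0.00283), Hepacam 1378878_at at 0.53 (adjusted p = 0.0161) and its binding partner Mlc1 at 0.41 (adjusted p = 0.0132), all by limma. Between 12 and 48 h 10 of the 29 were higher and 0 lower, with a median step of 0.19. They included Kcnj16 1373991_at at 1.75, Aqp9, another aquaporin, at 0.89, and the dystrophin complex gene Dtna at 0.71 for 1380964_at. Hepacam is a gene whose probe sets differed: 1378164_at stood at -0.20 from early shams at 48 h (adjusted p = 0.245). The other Slc4a4 probe set was not called at 12 h. For Kcnj16 the call at 48 h was of 1370076_at, and 1373991_at stood at 0.98 without a call (adjusted p = 0.0990 by limma). Injured cortex at 48 h read 0.92, 0.79 and 0.30 for 1370076_at, and the 48 h sham read 0.33. That sham read 0.68 for 1373991_at and 0.05 for Mlc1. Against the 48 h sham 0 of the 29 were called, beside 0.0129% of all probe sets. The list median there was 0.09, against 0.00 over all.

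Of the other genes of the glutamate and glutamine cycle (19 genes, 27 probe sets), 2 were higher and 1 lower at 12 h. Slc1a5, a transporter of neutral amino acids, was higher by 0.98 (adjusted p = 0.00132 by limma) and its relative Slc1a4 by 0.67 (adjusted p = 0.0297 by limma). Slc38a3, which exports glutamine from astrocytes, was lower, with a difference of -0.41 at 6 h (adjusted p = 0.0287 by limma) and -0.36 at 12 h (adjusted p = 0.0465 by limma). For Slc38a3 the 48 h sham read -0.44, below every injured array of 6 and 12 h. Injured cortex at 48 h stood 0.75 above that sham. At 48 h against early shams 1 was higher, the cystine and glutamate exchanger Slc7a11 at 0.42, and 2 were lower, the mitochondrial glutamate carrier Slc25a18 at -0.48 and the proline oxidase Prodh at -0.47. Prodh also had a probe set that was not called there. Between 12 and 48 h 3 were higher and 2 lower, with Slc38a3 higher by 0.62 (adjusted p = 0.000976 by limma) and Slc1a1, the neuronal glutamate transporter, lower, with a difference of -0.37 for 1370367_at (adjusted p = 0.0189 by limma). The other Slc1a1 probe set, 1387932_at, had a step of -0.28 that was not called (adjusted p = 0.134 by limma). The median of the list was -0.10 at 12 h and -0.15 at 48 h.

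Of 13 further folate enzymes (18 probe sets), Shmt2, a mitochondrial serine hydroxymethyltransferase, was the only call at 12 h, higher by 0.40 (adjusted p = 0.0102 by limma). Against early shams at 48 h 4 probe sets were higher, with Gldc at 0.62 and Amt at 0.49, both of the glycine cleavage system, and Mthfs at 0.52 and 0.45. Gart, of purine synthesis, was lower, with a difference of -0.79 (adjusted p = 0.0232 by limma). Each of Gldc, Mthfs and Gart also had a probe set that was not called there. Between 12 and 48 h 3 of the 18 were higher and 3 lower, beside 4.65% and 4.44% of all probe sets. The median step of this list was 0.075. The other connexins and pannexins (9 genes, 13 probe sets) had 0 calls against early shams at 12 or 48 h. Gjb2, a connexin of the meninges, rose by 0.81 between 12 and 48 h (adjusted p = 0.0479 by limma), and its difference from early shams at 12 h was -0.34 (adjusted p = 0.516 by limma). At 48 h it read 0.71, 0.88 and 0.45 in injured cortex, all below the 48 h sham at 1.03.

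Among 34 more genes known from resting astrocytes (48 probe sets), 5 probe sets were lower and 0 higher at 12 h. They were the claudin gene Cldn10 at -0.78, the metabotropic glutamate receptor Grm3 at -0.61, the phospholipid phosphatase Plpp3 at -0.57, the peptide transporter Slc15a2 at -0.57 and the receptor gene Gpr37l1 at -0.46. Their adjusted p ran from 0.0106 to 0.0315 by limma. Plpp3 also had probe sets that were not called at 12 h. The median of the 48 was -0.16, against -0.02 over all probe sets. Between 12 and 48 h 10 were higher and 0 lower, and the 5 named genes each had a called step, from 0.64 for Grm3 to 0.86 for Slc15a2. At 48 h against early shams 4 were higher, with the microsomal glutathione transferase Mgst1 at 2.36 and the fatty acid binding protein Fabp7 at 2.14 well above Rorb at 0.47 and Clu at 0.35. Rorb and Clu each also had a probe set that was not called there.

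Reactive astrocyte genes (16 genes, 22 probe sets) had 8 probe sets higher at 6 h and 0 lower, with a median of 1.17. Of all probe sets 1.31% were higher and 0.399% lower at 6 h. Gfap, the intermediate filament gene that marks reactive astrocytes, read 0.91, 0.66 and -0.14 in injured cortex at 12 h and 1.20, 1.28 and 1.04 at 48 h, against -0.40, -0.83 and -0.81 in early shams and 0.61 in the 48 h sham. It was higher than in early shams by 1.16 ± 0.23 at 12 h (SE, adjusted p = 0.0149 by limma) and by 1.85 ± 0.23 at 48 h (SE, adjusted p = 0.00107 by limma), and it differed by 0.56 from the 48 h sham (adjusted p = 0.847 by limma). Vim, another intermediate filament gene, was higher than in early shams at 48 h by 2.22 (adjusted p = 0.00665 by limma) and had a difference of 0.67 at 12 h (adjusted p = 0.436 by limma). The 48 h sham read 0.73 for Vim, and injured cortex at 48 h stood 1.35 above it. S100b, a calcium binding protein of astrocytes, had a difference of -0.22 at 48 h (adjusted p = 0.0888 by limma). Of the list, 13 probe sets were higher at 12 h, with a median of 1.84, and 13 at 48 h against early shams, with a median of 1.58. The 48 h sham itself had a median difference of 0.96 from the early shams over this list. Against that sham the median at 48 h was 0.46. Several of these genes, such as Cd14, Lcn2 and Timp1, are also made by immune or vascular cells.

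**Figure D4:**
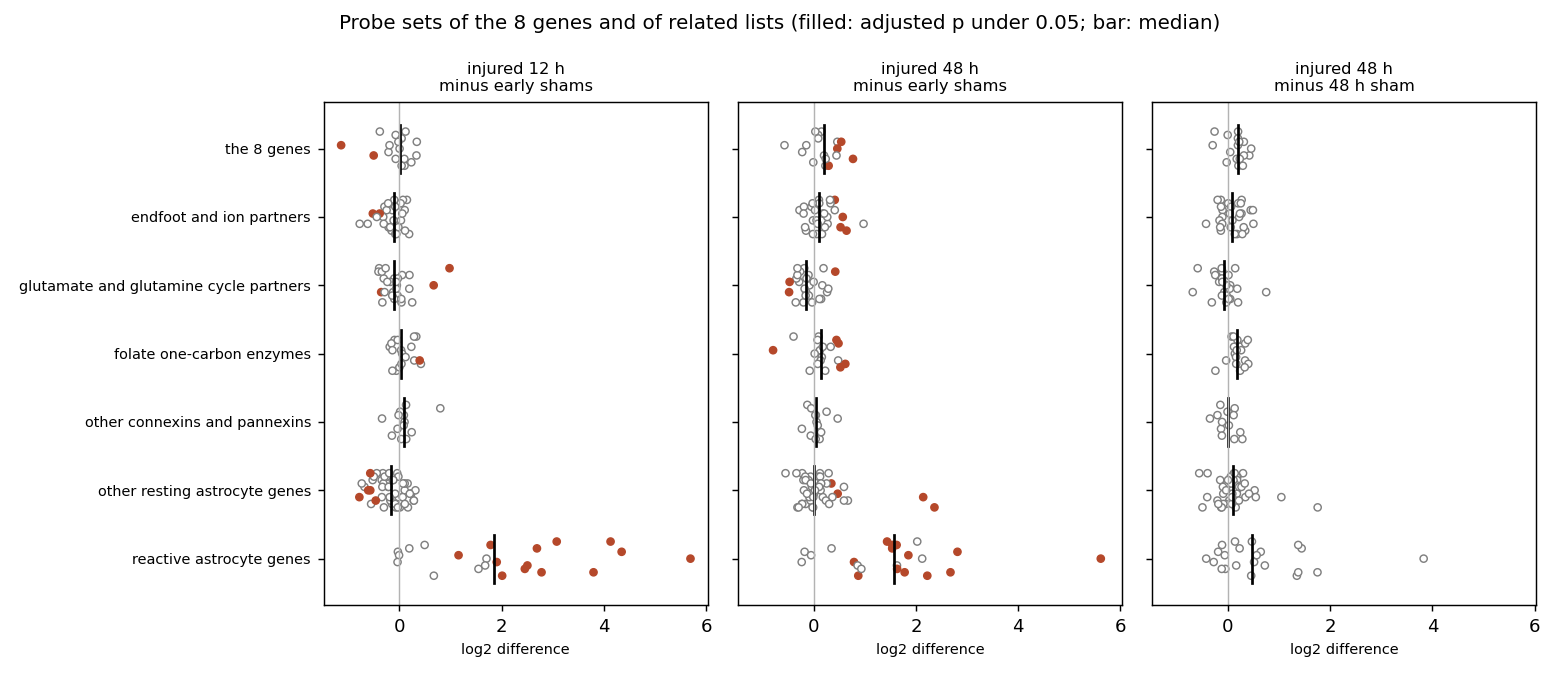
Log2 differences of the probe sets of the 8 genes and of 6 lists of related genes (rows) for injured 12 h minus early shams, injured 48 h minus early shams and injured 48 h minus the 48 h sham (panels; x axis: log2 difference). Each point is a probe set, filled where the adjusted p was under 0.05, and bars are medians; the reactive genes lie to the right at 12 and 48 h, and no point is filled against the 48 h sham.

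Markers of some other cell types moved over the same times, and those of others had few or no calls. The mean of 9 microglia probe sets lay between -0.76 and -0.55 in the 12 h injured arrays and between 0.98 and 1.59 in the 48 h injured arrays, against -0.07 to 0.35 in early shams and 0.51 in the 48 h sham. The mean of 12 endothelial probe sets lay between -0.68 and 0.00 at 12 h and between 0.33 and 0.53 at 48 h, against 0.12 to 0.19 in early shams and 0.44 in the 48 h sham. Neuronal markers (19 probe sets) lay between -0.17 and -0.03 at 12 h and between -0.32 and 0.00 at 48 h, against 0.08 to 0.18 in early shams and -0.12 in the 48 h sham. Markers of meninges and fibroblasts (12 probe sets) lay between -1.12 and -0.11 at 12 h and between 0.69 and 1.48 at 48 h, against 0.30 to 0.95 in early shams and 1.41 in the 48 h sham. At 12 h 4 of these 12, 4 of the 9 microglia, 3 of the 12 endothelial and 1 of the 19 neuronal probe sets were called lower. In these lists 0 were higher, beside 0.763% of all probe sets lower and 2.12% higher. Between 12 and 48 h 8 meningeal, 7 microglia and 8 endothelial probe sets were called higher and 0 lower, beside 4.65% and 4.44% of all. Of the neuronal ones 0 were higher and 1 lower. Markers of neutrophils and monocytes (8 probe sets) lay between 1.04 and 2.13 at 12 h and between -0.23 and 1.43 at 48 h, against -0.91 to -0.57 in early shams and -0.06 in the 48 h sham. Of these 8, 3 were called higher and 0 lower at 12 h, and 0 higher and 2 lower between 12 and 48 h. At 12 h 0 of 16 oligodendrocyte and 0 of 6 oligodendrocyte precursor probe sets were called. The same held for 10 pericyte and smooth muscle and 7 choroid plexus and ependyma probe sets. Of 4 erythrocyte probe sets 1 was higher. Between 12 and 48 h 2 precursor and 1 pericyte probe sets were higher. In that step 1 oligodendrocyte and 1 erythrocyte probe set were lower, and 0 choroid plexus ones were called. The part of these cell types in the differences of Gjb6, Aldh1l1, Aqp4 and Gja1 was not tested.

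After normalization and subtraction of each probe set's median, the medians of the arrays lay between -0.01 and 0.01. No array was a copy of another, and the root mean square difference of the closest pair was 0.202. The spread over probe sets was widest in the second injured arrays of 12 h (0.349) and 48 h (0.347) and ran from 0.190 to 0.280 in the other 14. In the second 12 h array the spiked bacterial control transcripts averaged -1.33, against -0.14 to 0.39 in the other arrays. Neither the labels nor the files used here give a scan or labelling batch.

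The probe sets whose values most resembled those of the changing members were ranked by Pearson correlation over the 16 arrays, which share groups and arrays, so these are descriptions. Closest to Gjb6 were Eva1a (0.90), Zbed3 (0.89) and Pdcd4 (0.87). Closest to Aldh1l1 were Gpr37l1 (0.88), Acads (0.87) and Pcdh10 (0.87). Closest to Aqp4 1368981_at were Pclaf, Naprt and Cdca7l (0.88 to 0.89), and to Aqp4 1372190_at S100a16, Cyb5a and Naprt (0.88 to 0.89). Closest to Aqp4 1387397_at were Zfand1, Acss3 and Rftn2 (0.86 to 0.87). For Gja1 they were Vav2, Pccb and Sumf2 (0.85) with 1369640_at and Fam234a, Cd180 and Cenpp (0.82 to 0.84) with 1372002_at. None of the 8 genes was among the 3 closest to another of them in these 7 probe sets, and between Gjb6 and Aldh1l1 the correlation was 0.44.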

How the data were processed

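RNA of rat cortex from 16 arrays was used. Per the submitters' processing notes and the labels, the authors normalized the arrays with RMA. The deposited values are on a log scale, taken here as log2 because the base is not given in the sources used here, with each probe set's median over the 16 arrays subtracted. Probe sets were named from the array annotation, and 20826 of 31042 had 1 gene symbol. The 57 control probe sets were left out.

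One limma model (limma 3.58.1, R 4.3.3) held 6 groups, with 10 residual degrees of freedom, and p-values were adjusted by Benjamini-Hochberg over all 31042 probe sets. Differences between probe sets of a gene were fitted the same way over 9597 pairs. The code was tested on simulated data. Every probe set of the 8 genes is described. From each list, called genes with the largest changes are named, up to 4 each way, with a few more examples. Gfap, Vim, Gjb2, Slc38a3, Slc1a1, Mlc1, S100b and Kcnj16 are named whatever their result. The members and lists were chosen with earlier results of these data known. Arrays with the same replicate number did not deviate together (correlations of -0.165 to 0.236), so numbers were not taken as pairs. Alternatives were quantile normalization, the mean of a gene's probe sets, array weights, only the compared groups, a single sham, all 4 shams, a replicate block, and leaving out each array. Precision is limited by the number of arrays. Promoters came from RefSeq GRCr8.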

Additional observations from a re-analysis of the deposited data

Results flagged for a closer look

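Between injured cortex at 48 h and at 12 h the change was called for 5 probe sets, by 0.71 for Aldh1l1, 0.46 for Gja1 1369640_at, and 0.84, 0.56 and 0.42 for Aqp4 1368981_at, 1372190_at and 1387397_at. For 3 probe sets every injured array lay above the 48 h sham at 48 h and below the mean of the early shams at 12 h, although for Aqp4 1368981_at the 12 h arrays overlapped the early shams. The difference of those effects was 1.34 for Gjb6 (adjusted p = 0.177 by limma), 0.92 for Aldh1l1 (adjusted p = 0.115 by limma) and 0.25 for Aqp4 1368981_at (adjusted p = 0.881 by limma), and none passed the threshold.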

How the results depend on the processing

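Of 136 results of a member probe set in a comparison, 11 were called as reported, 8 only under an alternative and 117 under none, and no called value changed sign. In these counts the mean of a gene's probe sets stands for each of its probe sets. Called probe sets at 3 h numbered 86 (71 higher, 15 lower), 217 after quantile normalization (156 higher, 61 lower), 380 with array weights, 171 with only the 2 groups, 18 with a single sham, and 44 to 120 leaving out 1 array. At 6 h they numbered 531, then 1155, 1137, 1040 and 103 in that order, and 250 to 427. At 12 h they numbered 896, 339 with only the 2 groups, 129 with a single sham, and 347 to 1846. At 48 h against the 48 h sham they numbered 4 (3 higher, 1 lower), 7 after quantile normalization (4 higher, 3 lower), 0 with gene means, 7 with array weights, 1 with only the 2 groups, and 2 to 135. Against early shams they numbered 1908, 3142 with array weights, 954 with only the 2 groups, 1250 with all 4 shams, an alternative chosen after seeing the data, and 565 to 2923. Between 3 and 6 h there were 200, then 821, 1042 and 676 by quantile, weights and 2 groups, 110 with the replicate block, and 41 to 188. Between 6 and 12 h there were 4, then 9 by quantile, 2 by gene means, 8 by weights, 0 by 2 groups, and 3 to 45. Between 12 and 48 h there were 2822, then 1668, 1817 and 296 by quantile, weights and 2 groups, and 1639 to 3284. Among the members, 1 was called at 6 h after quantile normalization, with weights or with only the 2 groups, which was Gjb6. At 12 h 1 was called after quantile normalization or with a single sham, 0 with only the 2 groups, and 1 to 2 leaving out 1 array. At 48 h against early shams 6 were called with weights (5 higher, 1 lower), 4 by quantile (3 higher, 1 lower), 3 by 2 groups or with all 4 shams, 2 genes by gene means, and 2 to 3 probe sets leaving out 1 array. Between 12 and 48 h 3 were called by quantile, gene means, weights or the replicate block, 2 by 2 groups, and 3 to 5 leaving out 1 array. With the block, Gja1 1369640_at had an adjusted p of 0.0508 and Aqp4 1387397_at 0.0825 by limma. Called Aqp4 pairs at 48 h numbered 0 by quantile and 0 to 2 leaving out 1 array. No paired analysis was possible for comparisons with shams because all shams carry the same replicate number. The cause of these changes was not tested.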
